A study of Homo sapiens with 6 samples.

Results

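The genes described here are the human ATP-binding cassette (ABC) transporters of subfamilies A to G, the SLC22 organic ion transporters and the SLCO organic anion transporters. They were chosen by gene symbol alone, as every symbol made of ABCA to ABCG and a number, SLC22A and a number, or SLCO with its family number, subfamily letter and gene number. This gave 80 of the 61859 genes in the table: 46 ABC genes, 22 SLC22 genes and 12 SLCO genes. Of the 80, 39 had a mean of at least 10 normalized counts over the 6 samples and were tested, 26 had reads but a lower mean, and 15 had no read in any library. ABCA1, ABCG2 and SLC22A18 were among the tested genes.

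ABC proteins bind and hydrolyse ATP, and most of them use it to move lipids, peptides, metals, conjugates or drugs across membranes. Members of ABCE and ABCF carry the same ATP-binding domains without membrane-spanning ones and work on ribosomes. They are counted among the transporters here by gene symbol only. SLC22 proteins carry organic cations, anions and zwitterions such as carnitine, and SLCO proteins (the OATP family) bring bile salts, steroid conjugates and many drugs into cells. Sulfasalazine, the drug to which the cells studied are resistant, blocks cystine uptake by xCT and is a known substrate of the efflux pump ABCG2. FOXA1 is a forkhead transcription factor that opens closed chromatin.

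All 6 samples were OSC19SSZR, a sulfasalazine-resistant oral squamous cell carcinoma line. FOXA1 siRNA was given to 3 of them and control siRNA to 3, both by lipid transfection, and total RNA was sequenced after 48 h. Resistance was therefore shared by both groups, and the labels do not say how many siRNA sequences were used or whether replicates were separate cultures, so p-values measure the spread between these samples. Values are normalized counts, that is, reads divided by 1 size factor per library. The libraries held 16510125 to 25732569 reads counted over all genes.

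FOXA1 itself had 247, 192 and 189 normalized counts with FOXA1 siRNA, against 1477, 1378 and 1459 with control siRNA, so its level was 14.5% of control (limma adjusted p = 3.32e-18). The 7 squamous markers were all detected, with summed levels of 46316 to 49271 with FOXA1 siRNA and 45775 to 47905 with control siRNA, although KRT14 averaged only 47.6 ± 25.7 with FOXA1 siRNA and 30.0 ± 21.8 with control siRNA (SD, n = 3). Single squamous markers changed in both directions: KRT17 (log2 change 1.01) and DSG3 (0.65) rose, and TP63 (-0.40) and KRT5 (-0.18) fell by the limma test used below, CDH1 and KRT14 did not pass, and KRT6A, with 178, 72.1 and 64.0 with FOXA1 siRNA and 50.4, 38.3 and 802 with control siRNA, did not pass. Among markers of other cells, 1 of 6 fibroblast genes, 1 of 5 leukocyte genes, 1 of 3 endothelial genes and 0 of 4 hepatocyte genes reached a mean of 10. LUM, DCN, ALB and TTR had no read. The summed fibroblast markers were 92.5 to 137 with FOXA1 siRNA and 148 to 165 with control siRNA, and nearly all of this was COL1A1. The summed leukocyte markers were 78.2 to 101 with FOXA1 siRNA and 97.0 to 109 with control siRNA, and the summed hepatocyte markers 0.759 to 5.93 with FOXA1 siRNA and 8.56 to 19.2 with control siRNA. The summed endothelial markers were 279 to 302 with FOXA1 siRNA and 542 to 571 with control siRNA; CDH5 carried this sum, while PECAM1 was at 0 in 5 of the 6 libraries. The part of these marker differences in the transporter results was not tested.

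Most of the expressed transporters were lower after FOXA1 knockdown. Of the 39 tested genes, 26 fell, 6 rose and 7 did not pass the test (limma on log2 values, adjusted p under 0.05 over all tested genes). Over all 18460 genes tested, 51.8% were called, 25.0% lower and 26.8% higher, by the same rule, so the transporters held 66.7% lower and 15.4% higher calls beside a nearly even split. Their median log2 fold change was -0.45, beside 0.0039 for all tested genes. At least 2-fold falls were called for 11 transporters and 5.33% of all genes, and at least 2-fold rises for 0 transporters and 1.65% of all genes. The 3 FOXA1 siRNA libraries lay wholly below the 3 control libraries for 27 transporters and wholly above them for 7; over all genes, 57.6% did not overlap, 28.1% lower and 29.5% higher. In bulk RNA, fewer cells of a type and less RNA per cell cannot be told apart.

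The direction differed between subfamilies. All 6 tested SLC22 genes and all 4 tested SLCO genes fell, as did 6 of 8 ABCA and 6 of 7 ABCC genes, and none of the tested genes of these 4 groups rose. ABCE1, ABCF2, ABCF3, ABCD3 and ABCG2 were among the 6 genes that rose. Median log2 fold changes were -1.01 for SLC22, -0.90 for ABCA, -0.68 for ABCC, -0.45 for SLCO, 0.029 for ABCB and 0.40 for ABCF. Summed over all 22 SLC22 genes, 1353, 1407 and 1228 normalized counts were found with FOXA1 siRNA, against 2953, 3066 and 2892 with control siRNA, which is 44.7% of control. The corresponding sums relative to control were 65.6% for ABCA, 67.8% for ABCC, 74.3% for SLCO and 81.5% for ABCG. ABCB reached 96.6%, ABCD 101%, ABCF 126% and ABCE1 150%. No test was made of the difference between subfamilies.

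**Figure D1:**
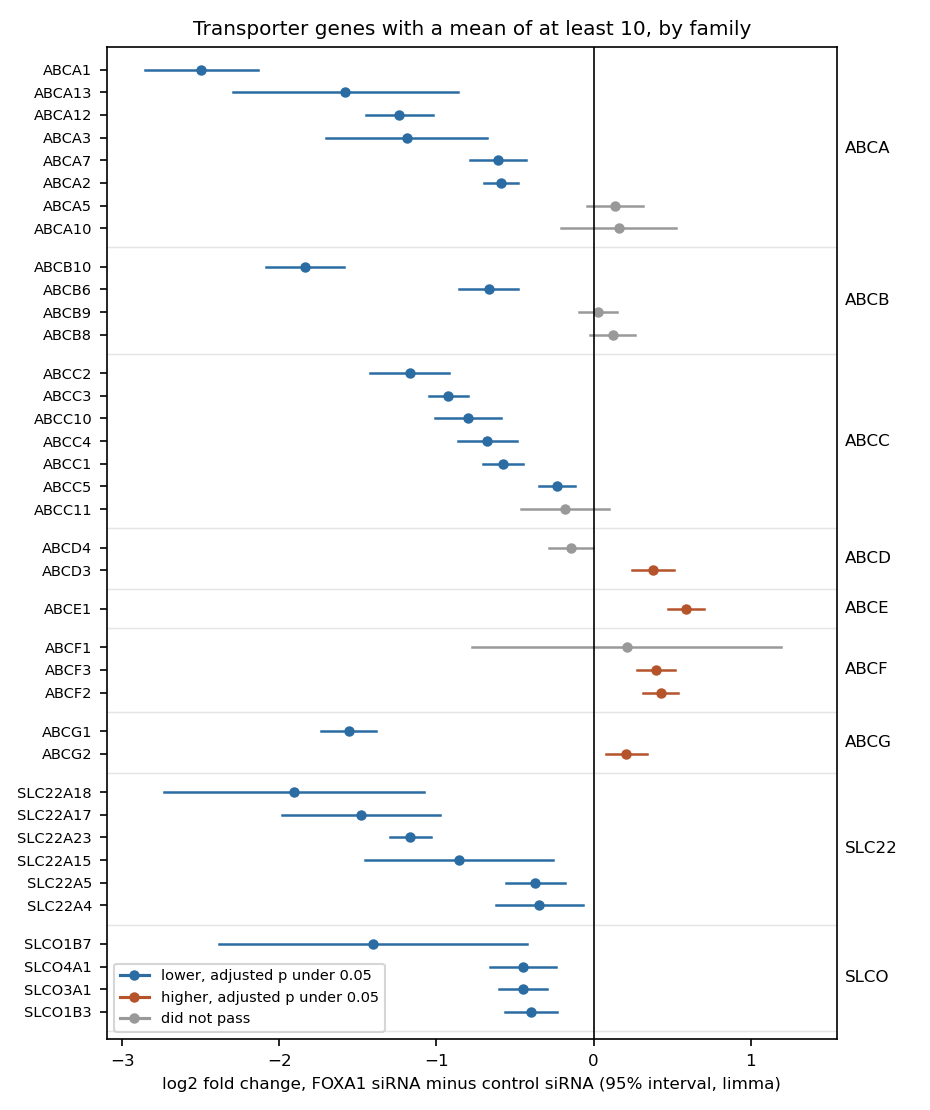
Log2 fold change with its 95% interval (FOXA1 siRNA minus control siRNA) of 37 of the 39 tested transporters, grouped by subfamily and coloured by call. SLC22 and SLCO genes all lie below 0, while ABCE1, ABCF2 and ABCF3 lie above it.

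The share of calls among genes depends on their level, so the transporters were also set beside genes of like level. Of 23 transporters with means of 100 to 1000, 17 fell and 2 rose, while 28.1% of the 8589 genes in this range were lower and 28.5% higher. Of 10 transporters with means of at least 1000, 4 fell and 4 rose, while 22.3% of the 4163 genes there were lower and 47.7% higher. Among the 6 with means of 10 to 100, 5 fell and 0 rose, against 22.3% lower and 9.18% higher of 5708 genes. The medians in these ranges, from low to high, were -1.30, -0.45 and 0.12 for the transporters and -0.16, 0.0051 and 0.12 for all genes. For members with means of at least 1000, the median was thus close to that of all genes in this range. That median pooled the ABCE and ABCF genes (0.21 to 0.59) with ABCC3 (-0.92), ABCA2 (-0.59), ABCC1 (-0.58), ABCC5 (-0.23), ABCB9 (0.029) and ABCG2 (0.21).

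**Figure D2:**
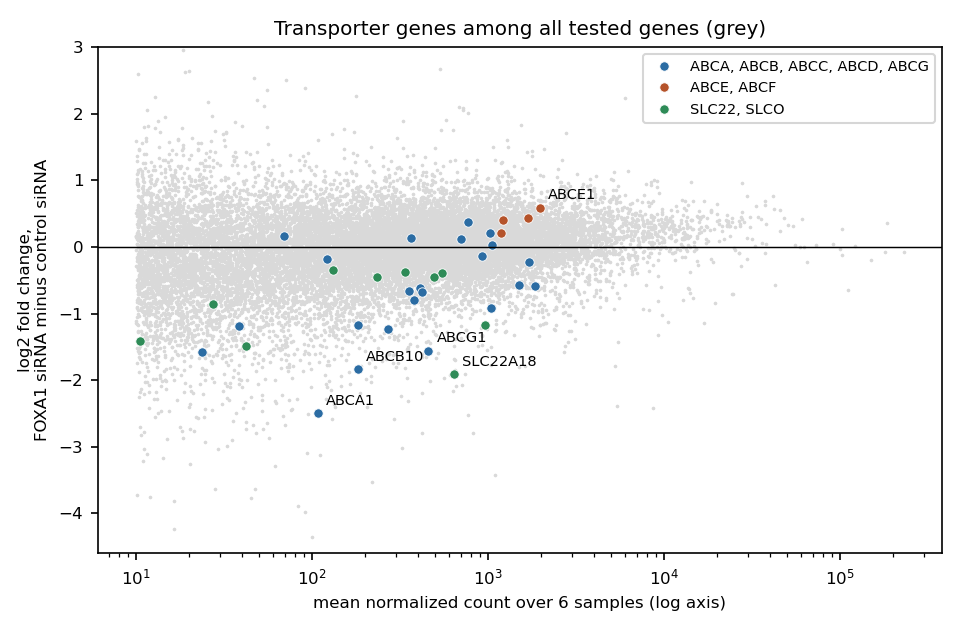
Log2 fold change (FOXA1 siRNA minus control siRNA) against mean normalized count on a log axis for 37 of the 39 tested transporters, coloured by subfamily, over the 18460 tested genes in grey, of which 2 lie outside the axis. Transporters with means under 1000 lie mostly below 0, and those above it are split, with 4 called lower and 4 higher.

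Among ABCA genes, which mostly move lipids, ABCA1 had the largest fall of all 39. ABCA1, which exports cholesterol and phospholipid to apolipoprotein A-I, had 25.7, 39.5 and 30.8 normalized counts with FOXA1 siRNA, against 185, 184 and 179 with control siRNA. The groups were far apart, with the lowest control library over 4 times the highest knockdown library. The log2 fold change was -2.50 (SE 0.18, 95% interval -2.86 to -2.14, limma adjusted p = 2.2e-12). The gene (ENSG00000165029) spans chr9:104781002-104928237 on the minus strand of GRCh38.

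ABCA12, which loads glucosylceramide into the lamellar granules of keratinocytes, had 182, 155 and 144 with FOXA1 siRNA, against 390, 356 and 386 with control siRNA, a log2 change of -1.24 (SE 0.10, limma adjusted p = 8.99e-11). ABCA2, an endosomal and lysosomal lipid transporter and the most abundant ABCA member by count, had 1477, 1468 and 1473 with FOXA1 siRNA, against 2229, 2262 and 2164 with control siRNA. Its replicates lay close together and its level was 66.4% of control (log2 change -0.59, limma adjusted p = 2.06e-10). ABCA7, a relative of ABCA1 that exports phospholipid, averaged 325 ± 19.2 with FOXA1 siRNA and 498 ± 51.2 with control siRNA (SD, n = 3; log2 change -0.61).

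ABCA3, which fills the surfactant-storing lamellar bodies of the lung, and ABCA13 were scarce here. ABCA3 averaged 23.5 ± 7.43 with FOXA1 siRNA and 53.4 ± 1.78 with control siRNA (SD, n = 3; log2 change -1.19, SE 0.25), and ABCA13 averaged 12.1 ± 6.15 with FOXA1 siRNA and 35.4 ± 6.30 with control siRNA (log2 change -1.58, SE 0.35). Both fell without overlap between the groups. ABCA5 and ABCA10 did not pass: their log2 changes were 0.14 (95% interval -0.039 to 0.31) and 0.16 (-0.21 to 0.53), intervals that leave out a 2-fold change. The exons of these neighbours on chromosome 17 overlap by up to 318 bases on 1 strand, so their reads may not be fully separate.

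ABCG1, which passes cholesterol to HDL and is switched on together with ABCA1 by the oxysterol receptors LXR, also fell. It had 257, 219 and 218 normalized counts with FOXA1 siRNA, against 689, 707 and 650 with control siRNA, which is 33.9% of control (log2 change -1.56, SE 0.09, limma adjusted p = 1.44e-14). ABCG2, the drug efflux pump BCRP, was the other tested ABCG gene. It had 1074, 1052 and 1185 with FOXA1 siRNA, against 971, 961 and 929 with control siRNA. All knockdown libraries lay above all control libraries, by a small margin: the level was 116% of control (log2 change 0.21, SE 0.06, limma adjusted p = 0.00682). This rise did not pass when libraries were scaled to equal totals (0.11, limma adjusted p = 0.140) or by quantiles (0.14, limma adjusted p = 0.0545).

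**Figure D3:**
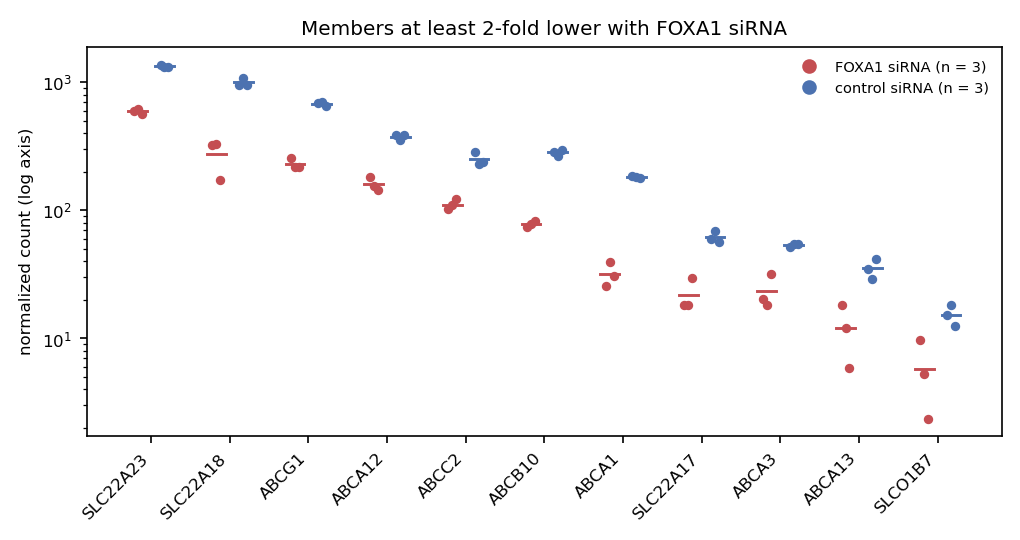
Normalized counts on a log axis of the 11 transporters that fell by at least 2-fold, with FOXA1 siRNA at left and control siRNA at right for each gene; points are libraries (n = 3 each) and lines are means. For each of the 11 genes the groups do not overlap.

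Of the ABCB genes, ABCB10 had the largest change. ABCB10, a mitochondrial inner membrane transporter involved in haem synthesis and oxidant defence, had 74.0, 78.9 and 83.0 normalized counts with FOXA1 siRNA, against 285, 267 and 298 with control siRNA. The groups were well separated, at 27.7% of control (log2 change -1.84, SE 0.12, limma adjusted p = 6.63e-13). ABCB6, linked to porphyrin transport, had 305, 242 and 281 with FOXA1 siRNA, against 418, 443 and 452 with control siRNA (log2 change -0.67, SE 0.09, limma adjusted p = 6.68e-07). The mitochondrial ABCB8 and the lysosomal peptide transporter ABCB9 did not pass, with log2 changes of 0.12 (95% interval -0.023 to 0.27) and 0.029 (-0.094 to 0.15); the direction of ABCB9 flipped to -0.069 with equal totals and -0.040 with quantiles. ABCB1, the multidrug pump P-glycoprotein, was at the detection limit, with 0, 1 and 1 reads with FOXA1 siRNA and 0, 0 and 0 reads with control siRNA.

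The ABCC genes, several of which encode multidrug resistance proteins that export glutathione, glucuronide or sulfate conjugates, fell in 6 of 7 cases. ABCC2, an apical exporter of conjugates, had 102, 109 and 122 normalized counts with FOXA1 siRNA, against 285, 229 and 241 with control siRNA (log2 change -1.17, SE 0.12, limma adjusted p = 5.74e-09). ABCC3, its basolateral counterpart, had 739, 708 and 693 with FOXA1 siRNA, against 1332, 1386 and 1343 with control siRNA, a log2 change of -0.92 (SE 0.06, limma adjusted p = 6.32e-13). In both genes every knockdown library was below every control library.

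ABCC1, the exporter of glutathione conjugates and leukotriene C4, had 1260, 1258 and 1105 with FOXA1 siRNA, against 1681, 1900 and 1821 with control siRNA (67.1% of control; log2 change -0.58, limma adjusted p = 9.9e-09). ABCC4, an exporter of cyclic nucleotides and prostaglandins, averaged 323 ± 41.8 with FOXA1 siRNA and 515 ± 29.4 with control siRNA (SD, n = 3; log2 change -0.68). ABCC10 fell by 0.80 on the log2 scale. The most abundant ABCC gene by count, the cyclic nucleotide exporter ABCC5, had the smallest called fall of the family, averaging 1578 ± 72.8 with FOXA1 siRNA and 1851 ± 59.2 with control siRNA (log2 change -0.23, limma adjusted p = 8.78e-04). ABCC11 did not pass, at -0.18 (95% interval -0.46 to 0.095).

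The ABCD proteins serve peroxisomes and lysosomes. ABCD3, which brings branched-chain and other acyl-CoAs into peroxisomes, had 886, 848 and 868 normalized counts with FOXA1 siRNA, against 701, 645 and 657 with control siRNA (130% of control; log2 change 0.38, SE 0.07, limma adjusted p = 2.27e-05). All knockdown libraries lay above all control libraries. ABCD4, which takes part in lysosomal cobalamin release, was at -0.14 (limma adjusted p = 0.0793) and passed as lower with equal totals (-0.24, limma adjusted p = 0.00476) and quantiles (-0.20, limma adjusted p = 0.0175).

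The ribosome-bound ABCE and ABCF proteins were the only subfamilies among those with tested genes in which calls were all upward. Their 4 genes had means of at least 1000, a range in which 47.7% of all genes were called higher and 22.3% lower. ABCE1, the factor that splits ribosomes for recycling, had 2313, 2242 and 2535 normalized counts with FOXA1 siRNA, against 1540, 1627 and 1547 with control siRNA. The groups were clearly apart, at 150% of control (log2 change 0.59, SE 0.06, limma adjusted p = 8.6e-10). ABCF2 had 1848, 2008 and 1936 with FOXA1 siRNA, against 1408, 1434 and 1460 with control siRNA (log2 change 0.43, SE 0.05, limma adjusted p = 1.72e-07). ABCF3 had 1397, 1404 and 1351 with FOXA1 siRNA, against 1078, 1008 and 1065 with control siRNA (log2 change 0.40, SE 0.06, limma adjusted p = 1.67e-06). ABCF1, which interacts with initiation factor eIF2, had 1336, 1289 and 1088 with FOXA1 siRNA, against 655, 1470 and 1254 with control siRNA. Its first control library was far below the other control libraries, and its log2 change of 0.21 (95% interval -0.77 to 1.19, limma adjusted p = 0.674) turned to -0.14 without that library (limma adjusted p = 0.209).

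**Figure D4:**
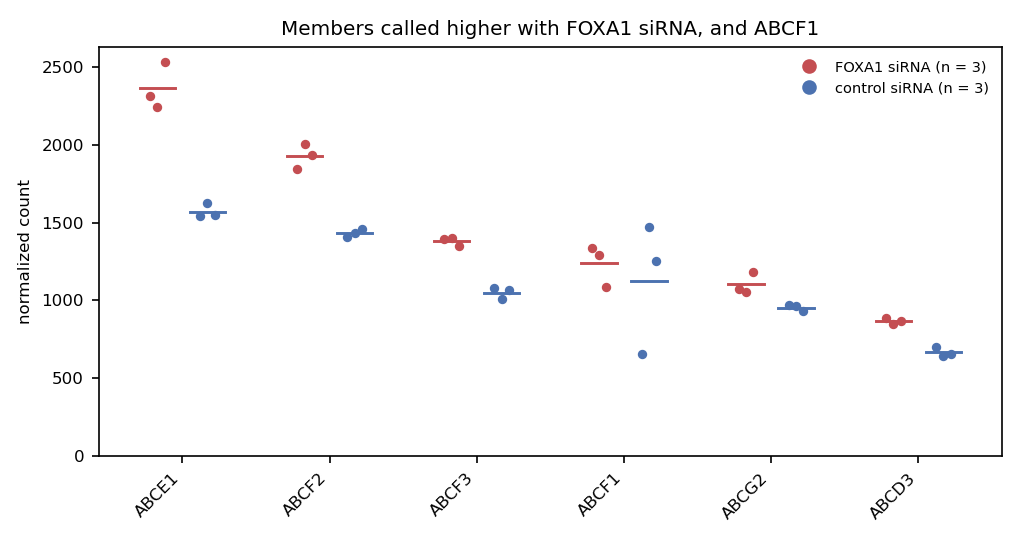
Normalized counts of 5 of the 6 members that rose, and of ABCF1, which did not pass. FOXA1 siRNA is at left and control siRNA at right for each gene. Points are libraries (n = 3 each) and lines are means. ABCE1 has the largest rise, at 150% of control, and 1 control library of ABCF1 lies far below the others.

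All 6 tested SLC22 genes fell. SLC22A18, an organic cation transporter-like gene in the imprinted cluster of chromosome 11 (chr11:2899721-2925246, plus strand, GRCh38), had 326, 331 and 173 normalized counts with FOXA1 siRNA, against 961, 1073 and 961 with control siRNA. The third knockdown library was well below the other knockdown libraries, yet all 3 were far below the control libraries. The level was 27.7% of control (log2 change -1.91, SE 0.30, 95% interval -2.74 to -1.08, limma adjusted p = 0.0073). SLC22A23, an orphan member, had 599, 618 and 571 with FOXA1 siRNA, against 1373, 1328 and 1312 with control siRNA (44.5% of control; log2 change -1.17, SE 0.06, limma adjusted p = 1.09e-14). These 2 genes made up most of the SLC22 sum.

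SLC22A17, a receptor for lipocalin 2 that has been linked to iron delivery, was scarce, with 18.2, 18.2 and 29.7 with FOXA1 siRNA, against 59.9, 69.6 and 56.5 with control siRNA (log2 change -1.48, SE 0.25, limma adjusted p = 1.05e-05). SLC22A5, the sodium-dependent carnitine transporter OCTN2, had 269, 303 and 311 with FOXA1 siRNA, against 405, 388 and 348 with control siRNA (log2 change -0.37, SE 0.09, limma adjusted p = 0.00122). The ergothioneine transporter SLC22A4 (OCTN1), whose gene lies 25546 bases from SLC22A5 on chromosome 5, averaged 115 ± 3.90 with FOXA1 siRNA and 147 ± 20.7 with control siRNA (SD, n = 3). Its call was weak (log2 change -0.34, limma adjusted p = 0.035) and was lost in 9 of 19 alternative settings. SLC22A15 was also near the threshold, with 23.6, 16.7 and 16.6 with FOXA1 siRNA, against 24.7, 38.3 and 43.9 with control siRNA (log2 change -0.86, limma adjusted p = 0.0153). Its call was lost in 4 of 18 alternative settings. Among these were the fits without the second (limma adjusted p = 0.0612) or the third (0.0957) control library.

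Of the 4 tested SLCO genes, 3 fell by 0.40 to 0.45 on the log2 scale. SLCO1B3, the hepatic uptake carrier OATP1B3 that is also found in several carcinomas, had 483, 435 and 497 normalized counts with FOXA1 siRNA, against 678, 560 and 629 with control siRNA (75.8% of control; log2 change -0.40, SE 0.08, limma adjusted p = 1.6e-04). In the same libraries the summed hepatocyte markers were 0.759 to 5.93 with FOXA1 siRNA and 8.56 to 19.2 with control siRNA. Most of that was SERPINA1, with 9 reads in all with FOXA1 siRNA and 38 with control siRNA, while ALB and TTR had no read; their part in the result was not tested. SLCO3A1, a prostaglandin carrier, had 415, 433 and 409 with FOXA1 siRNA, against 578, 572 and 563 with control siRNA (log2 change -0.45, SE 0.07, limma adjusted p = 1.15e-05). SLCO4A1, which carries thyroid hormone, had 200, 212 and 178 with FOXA1 siRNA, against 259, 263 and 283 with control siRNA (log2 change -0.45, SE 0.10, limma adjusted p = 6.12e-04). In these 3 genes the groups did not overlap. SLCO1B7, a neighbour of SLCO1B3 with few reads, averaged 5.78 ± 3.66 with FOXA1 siRNA and 15.3 ± 2.80 with control siRNA (SD, n = 3; log2 change -1.41, limma adjusted p = 0.0152). Its call was lost in 3 of 18 alternative settings. Among these were the fits without the third knockdown library (-0.98, limma adjusted p = 0.0793) or the second control library (-1.28, limma adjusted p = 0.0701).

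Levels were also set per kilobase of the longest annotated transcript, which need not be the transcript made in these cells. They are thus only roughly comparable between genes. By this measure, ABCE1 was the highest tested member over the 6 samples. It stood at 603 normalized counts per kilobase with FOXA1 siRNA and 401 with control siRNA. ABCF2 followed at 544 with FOXA1 siRNA and 404 with control siRNA, and ABCF3 at 487 with FOXA1 siRNA and 369 with control siRNA. With control siRNA, ABCE1 and ABCF2 did not differ beyond their SDs of 12.4 and 7.44. SLC22A18 stood at 105 ± 34.0 with FOXA1 siRNA and 379 ± 24.6 with control siRNA (SD, n = 3), which with control siRNA did not differ from ABCF3 (SD 13.2) beyond their spread. ABCG2 stood at 246 with FOXA1 siRNA and 213 with control siRNA, and ABCA1, whose transcript is long, at only 3.05 with FOXA1 siRNA and 17.4 with control siRNA. ABCA13 was the lowest, at 0.704 with FOXA1 siRNA and 2.06 with control siRNA.

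**Figure D5:**
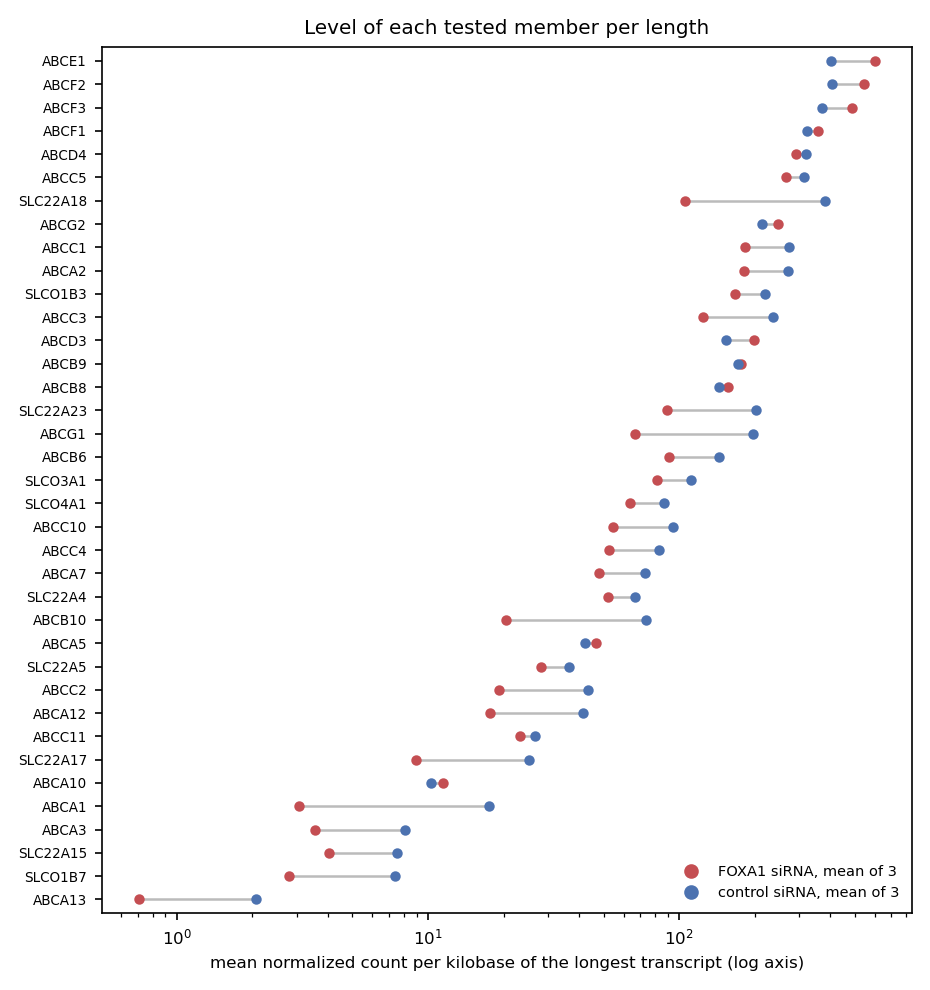
Mean normalized count per kilobase of the longest transcript, on a log axis, for 37 of the 39 tested transporters, with 1 point for FOXA1 siRNA and 1 for control siRNA (means of 3 libraries) joined by a line. ABCE1 and ABCF2 have the highest levels in both groups, and ABCA13 the lowest.

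Promoter windows around the start sites of these genes were searched for short motifs. RefSeq windows (GRCh38.p14, 250 bases before to 50 after a start, on the gene's strand) were at hand for 31 of the 39 tested genes, with 45 windows. They are shown for the genes with the largest fall and the largest rise, and for the other tested genes whose window held the forkhead motif searched, TGTTTAC or TGTTTGC on either strand. That motif, in capitals, was found in 3 of the 45 windows, in 5.57% of the 16255 windows of all tested genes and in 7.17% of all 35116 windows. Capitals in ABCF1 also mark the antioxidant response motif TGACNNNGC, read on the other strand.
ABCA1 (chr9:104928106-104928405, minus strand): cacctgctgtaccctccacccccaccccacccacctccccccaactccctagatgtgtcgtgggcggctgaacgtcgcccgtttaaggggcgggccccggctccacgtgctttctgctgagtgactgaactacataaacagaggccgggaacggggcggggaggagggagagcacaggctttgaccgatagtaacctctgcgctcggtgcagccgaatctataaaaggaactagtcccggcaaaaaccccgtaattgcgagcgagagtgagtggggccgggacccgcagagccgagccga
ABCE1 (chr4:145098061-145098360, plus strand): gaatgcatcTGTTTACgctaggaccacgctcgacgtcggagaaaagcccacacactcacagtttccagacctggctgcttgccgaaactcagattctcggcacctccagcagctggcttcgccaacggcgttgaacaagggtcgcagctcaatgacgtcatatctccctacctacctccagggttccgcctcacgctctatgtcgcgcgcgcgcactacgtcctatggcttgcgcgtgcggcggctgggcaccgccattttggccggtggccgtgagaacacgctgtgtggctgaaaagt
SLCO1B3 (chr12:20810455-20810754, plus strand): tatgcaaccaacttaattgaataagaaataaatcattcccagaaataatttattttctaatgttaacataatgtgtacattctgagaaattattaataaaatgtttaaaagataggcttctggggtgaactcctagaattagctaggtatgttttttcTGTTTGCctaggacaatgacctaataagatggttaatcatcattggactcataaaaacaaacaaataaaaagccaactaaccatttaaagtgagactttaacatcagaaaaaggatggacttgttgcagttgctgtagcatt
ABCF1 (chr6:30571192-30571491, plus strand): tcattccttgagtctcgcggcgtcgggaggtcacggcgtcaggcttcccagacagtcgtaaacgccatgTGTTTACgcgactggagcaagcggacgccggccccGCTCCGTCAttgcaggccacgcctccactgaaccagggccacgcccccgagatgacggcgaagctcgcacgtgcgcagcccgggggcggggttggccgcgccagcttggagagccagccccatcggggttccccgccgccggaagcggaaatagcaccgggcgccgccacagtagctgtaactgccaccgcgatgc
The forkhead letters lay 241 bases before the start in ABCE1, which rose, 92 before it in SLCO1B3, which fell, and 181 before it in ABCF1, which did not pass. Of the 4 windows, SLCO1B3 held 0 CG pairs and 30.0% G and C, while ABCA1 held 23 CG pairs and 62.7%. ABCE1 held 28 CG pairs and ABCF1 37. The antioxidant motif was found in 11 of the 45 windows, each of another gene, in 14.4% of the windows of all tested genes and in 13.3% of all windows. These were 1 that rose, ABCG2, 5 that fell, ABCA2, ABCA3, ABCB6, ABCC4 and ABCC10, and 5 that did not pass, ABCA5, ABCB9, ABCC11, ABCD4 and ABCF1. Matched letters describe these windows only, and other regions were not searched.

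The 41 genes below the mean of 10 included transporters best known from liver, kidney, brain or gut. With no read in any library were ABCC8, ABCC13, ABCG8, SLC22A2, SLC22A3, SLC22A6, SLC22A10, SLC22A12, SLC22A14, SLC22A24, SLC22A31, SLCO1C1, SLCO4C1, SLCO5A1 and SLCO6A1. A count of 0 allows up to 3 reads in the 114573293 counted over all genes. The intestinal uptake carrier SLCO2B1, of which sulfasalazine is a known substrate, had 1 read in all. SLCO2A1, the prostaglandin uptake transporter, had 7, 9 and 6 reads with FOXA1 siRNA, against 0, 1 and 0 reads with control siRNA. All knockdown libraries were higher; the ratio was 21.3 (exact 95% Poisson interval 3.45 to 880, counting error only), and the authors' deposited table gives a log2 change of 4.32 with an adjusted p of 0.0133. ABCA4, a retinal lipid transporter, had 1, 3 and 7 reads with FOXA1 siRNA against 19, 6 and 10 reads with control siRNA. The ratio was 0.305 (interval 0.140 to 0.614, again counting error only). Its groups overlapped, and the authors' deposited table gives an adjusted p of 0.121. The other low genes had at most 13 reads in a library.

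The authors' deposited table called 7 transporters higher and 23 lower at an adjusted p under 0.05, beside 19.4% and 17.6% of all genes with an adjusted p there. Of the 32 transporters called here, 29 were called in that table, all in the same direction. SLC22A4, SLC22A15 and SLCO1B7 were called here only, and SLCO2A1 only in the authors' deposited table.

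Genes that work beside these transporters were listed for comparison. Of 24 listed carriers and pumps outside the 3 families, 16 were tested, 3 rose, 5 fell and 8 did not pass, with a median log2 change of -0.068, so 50% were called, near the 51.8% of all tested genes. SLC29A1, the nucleoside carrier ENT1, averaged 574 ± 9.98 with FOXA1 siRNA and 311 ± 25.7 with control siRNA (log2 change 0.89, limma adjusted p = 5.87e-10). The organic cation exporter SLC47A2 averaged 249 ± 9.31 with FOXA1 siRNA and 665 ± 15.3 with control siRNA (log2 change -1.41, limma adjusted p = 2.24e-14), and the copper pump ATP7A 504 ± 16.8 with FOXA1 siRNA and 915 ± 22.0 with control siRNA (log2 change -0.86, limma adjusted p = 2.43e-11). TAP2, an antigen peptide transporter, averaged 201 ± 45.9 with FOXA1 siRNA and 116 ± 29.8 with control siRNA (log2 change 0.80, limma adjusted p = 0.00453).

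Of 20 listed regulators of transporter genes, 15 were tested, 2 rose and 5 fell, with a median of -0.0092, so 46.7% were called, again near the 51.8% of all tested genes. ESR1, the estrogen receptor alpha gene, averaged 142 ± 9.47 with FOXA1 siRNA and 86.0 ± 12.3 with control siRNA (log2 change 0.73, limma adjusted p = 1.24e-04). NR1H3, which encodes LXR alpha and is also on the list of LXR targets, averaged 301 ± 13.0 with FOXA1 siRNA and 368 ± 14.0 with control siRNA (log2 change -0.29, limma adjusted p = 0.00661), and ARNT, a partner of the aryl hydrocarbon receptor, changed by -0.24 (limma adjusted p = 0.00641). NFE2L2, which encodes the oxidant-response factor NRF2, changed by 0.21 (limma adjusted p = 2.74e-04), and by 0.022 under quantile scaling (limma adjusted p = 0.696). The xenobiotic receptor gene NR1I2 had no read. Of 12 listed LXR targets other than the transporters, 10 were tested, 7 (70.0%) fell and 1 (10.0%) rose, with a median of -0.27, beside 25.0% lower and 26.8% higher of all tested genes, whose median was 0.0039. SREBF1, the lipogenic factor gene, averaged 4790 ± 432 with FOXA1 siRNA and 6335 ± 385 with control siRNA (log2 change -0.41, limma adjusted p = 1.28e-05), and MYLIP, which marks the LDL receptor for degradation, 262 ± 22.5 with FOXA1 siRNA and 184 ± 8.83 with control siRNA (log2 change 0.51, limma adjusted p = 1.96e-04). The falls of ABCA1 and ABCG1 were thus larger than that of any of these 10 targets, the lowest of which was TTC39B at -0.54.

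Around SLC22A18, 13 neighbouring genes were listed and 12 tested, of which 6 (50%) fell and 2 (16.7%) rose (median -0.31), beside 25.0% lower and 26.8% higher of all tested genes. KCNQ1, a potassium channel gene with few reads, had the largest fall of them, averaging 19.9 ± 1.62 with FOXA1 siRNA and 70.6 ± 14.9 with control siRNA (log2 change -1.75, limma adjusted p = 4.93e-07). CDKN1C, the cell cycle inhibitor p57, averaged 97.9 ± 8.61 with FOXA1 siRNA and 202 ± 13.9 with control siRNA (log2 change -1.04, limma adjusted p = 1.06e-07). PHLDA2 changed the other way, with 506 ± 41.6 with FOXA1 siRNA and 401 ± 18.7 with control siRNA (log2 change 0.33), as did CARS1, a tRNA synthetase gene, with 1474 ± 137 with FOXA1 siRNA and 1234 ± 75.1 with control siRNA (log2 change 0.25). SLC22A18AS lies on the other strand, and its longest exon overlap with SLC22A18 is 126 bases. It averaged 43.7 ± 9.56 with FOXA1 siRNA and 147 ± 19.3 with control siRNA (log2 change -1.74, limma adjusted p = 3.42e-09). How strand was handled in counting is not given in the sources used here, so reads of the pair cannot be told apart in the overlap.

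Other tested transporters also share exonic bases with another gene and carry the same limit, and only some of these pairs are given. The bases given are the longest overlap between 1 exon of each gene, so the shared length may be greater. ABCB9 shares 2752 bases with AC026362.1 on the other strand, which averaged 2029 with FOXA1 siRNA and 1787 with control siRNA. ABCF2 shares 213 with AC021097.2 on its own strand, which averaged 1510 with FOXA1 siRNA and 1182 with control siRNA. ABCE1 shares 252 bases with ANAPC10, 243 with AC098588.1 and 179 with OTUD4, all on the other strand. ANAPC10 averaged 227 with FOXA1 siRNA and 188 with control siRNA. AC098588.1 averaged 55.5 with FOXA1 siRNA and 54.7 with control siRNA. OTUD4 averaged 1077 with FOXA1 siRNA and 549 with control siRNA. SLC22A23 shares 1320 bases with PSMG4, which averaged 484 with FOXA1 siRNA and 669 with control siRNA. SLCO1B3 and SLCO1B7 share 243 bases with a readthrough gene on their own strand, which averaged 443 with FOXA1 siRNA and 552 with control siRNA. ABCB6 shares 893 with one on its own strand, which averaged 911 with FOXA1 siRNA and 1156 with control siRNA. Of neighbouring members, SLC22A4 and SLC22A5 both fell and SLCO1B3 and SLCO1B7 both fell, while ABCC5 fell and ABCF3, 168008 bases away on chromosome 3, rose.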

How the data were processed

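RNA of 6 samples was sequenced from NEBNext Ultra libraries, per the labels. The submitters' processing notes name HISAT2, DESeq2 and the builds GRCh38 and GRCm38, without versions or roles; the counting tool, strand setting and removal of ribosomal RNA are not given in the sources used here. The authors deposited 1 table with normalized counts per gene and library (signal: reads divided by a size factor), a log2 fold change with its standard error, a test score and p-values. With a tolerance of 0.01 read, 100% of the deposited values were whole multiples of 1 step per library, so reads were recovered. Of 61862 lines, 3 were left out because they name no gene or are malformed.

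The main test was limma 3.58.1 (trend and robust, R 4.3.3) on log2(normalized count + 1) over the 18460 genes with a mean of at least 10, with Benjamini-Hochberg adjustment over all of them and a threshold of 0.05. The pseudocount understates changes of scarce genes. edgeR 4.0.16, DESeq2 1.42.0 and limma-voom on recovered reads were alternatives, beside other scalings, filters, pseudocounts and leaving out each library. The limma code was tested on simulated data. The members, gene lists and tests were chosen with earlier results of these data known. Some genes are counted but not reported here by name. Named were tested members (those at least 2-fold changed, the 3 largest rises and falls and the most abundant gene of each family, and others where the account needed them), and of each list up to 2 genes that rose and 2 that fell most among those with means of at least 50. KCNQ1, RXRB, TAP1 and low members given with values were chosen after their values were seen. Gene positions and lengths came from GENCODE 29 (GRCh38), promoter windows from RefSeq (GRCh38.p14); 55 of the 80 members matched a window. Replicate libraries differed beyond sampling noise, so none was counted as a duplicate.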

Additional observations from a re-analysis of the deposited data

How the results depend on the processing

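The 32 called transporters kept their direction in each alternative run for them. This was 19 settings for 27 genes and 18 for ABCA3, ABCA13, SLC22A15, SLC22A17 and SLCO1B7, which have means under 50. In every setting run, 27 (22 lower, 5 higher) passed, 24 of them in all 19 and 3 in 18. ABCG2, SLC22A4, SLC22A15 and SLCO1B7 were among the 5 that did not. The median log2 fold change of the tested members, -0.45, was -0.55 with equal totals, -0.38 with means of at least 50, and -0.50 to -0.44 when 1 library was left out; 23 to 26 members were then lower and 6 higher. The cause of these shifts was not tested. ABCB9, not called, changed sign with equal totals (-0.069) and quantiles (-0.040), and ABCF1 without the first control library (-0.14 there, up to 0.44 without others). Same-numbered replicates did not deviate together (correlations -0.0109 to 0.0109). This cannot tell whether they were handled together, so pairing by number stays unknown. With a replicate block the test gave 6 members higher and 26 lower with a median of -0.45, and for the listed genes 8 higher and 21 lower, against 8 and 22 without it. Genes under about 10 normalized counts are limited by depth.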

Other observations

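ABCF1 varied between replicates more than other transporters of its level, and so did TAP1, TAP2 and RXRB among the listed genes. All lie in the MHC region of chromosome 6, and the region was examined after these values were seen. Over genes with means of at least 100, the within-group SD of log2 values had a median of 0.188 for the 99 genes from GABBR1 to KIFC1 (chr6:29555629-33409924, GRCh38), against 0.0881 for 511 genes on the rest of that chromosome and 0.0858 for 12482 genes outside the region. The SD was above 0.4 for 16 of the 99 genes, against 42 of the 12482. ABCF1 was at 0.45, TAP1 at 0.60, TAP2 at 0.35 and RXRB at 0.46. Changes of genes in this region, ABCF1 among them, therefore rest on less precise values.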
